A study of Homo sapiens with 3 samples.

Results

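Neuropeptides and peptide hormones are short signalling molecules cut from larger precursor proteins. The precursors enter the secretory pathway, where convertases cleave them at pairs of basic residues and further enzymes trim and amidate the products, which are stored in granules until release. Most act on G protein-coupled receptors of neighbouring or distant cells, and in the prostate they are best known from neuroendocrine cells.

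The genes described here encode 10 such precursors, namely GCG, NTS, NPY, VIP, GAL, PENK, SST, PTHLH, CALCB and TAC1. They were chosen from measured values, because GCG led all genes of one resistant array and NTS was high in the other, so that both values are given as a description. Every probe set that the platform annotation gives to one of these symbols was used. These were 11 probe sets of 9 genes, out of 19775 genes read by probe sets of their own, and none of the 11 was shared with a further gene. No probe set was annotated to PTHLH in the table used here, and it was not analysed here.

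C4-2B MDVR cells, kept in medium with 20 µM enzalutamide, and C4-2B AbiR cells, kept with 10 µM abiraterone acetate, were compared with C4-2B parental cells, which the study's methods describe as passaged alongside them. C4-2B is an established castration-resistant line derived from LNCaP prostate cancer cells. Enzalutamide blocks the androgen receptor and abiraterone inhibits androgen synthesis. Total RNA of each line was hybridized to 1 Affymetrix HG-U133 Plus 2.0 array, with no replicate, so that each difference below lies between 2 arrays, carries no test and cannot be assigned to the drug. Each resistant line is 1 subline, and long culture, selection and the drug in the medium cannot be told apart.

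The deposited values are log2 RMA values that had been centred for each probe set. They show how the arrays differ within a probe set but not how strongly a gene is expressed, so that a silent gene and an expressed, unaltered gene look alike, and the labelled tissue could not be checked by the presence of prostate markers. Over 45 spiked bacterial control probe sets, log2 differences scattered with an SD of 0.13 between MDVR and parental, 0.10 between AbiR and parental and 0.12 between MDVR and AbiR. The most extreme of them reached 0.35, 0.20 and 0.34 in absolute size. The 3′ minus 5′ signal of ACTB, a measure of RNA integrity, differed from parental by −0.22 in MDVR and by −0.12 in AbiR. The same measure for GAPDH gave −0.047 for MDVR cells and 0.061 for AbiR cells. RNA came from whole cultures, in which a larger share of expressing cells and more RNA per cell cannot be told apart.

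Both genes on which the results turn, and the somatostatin gene SST for contrast, are shown by the 250 bases before their RefSeq gene start (GRCh38.p14), each written 5′ to 3′ on the gene's own strand. Capitals mark every match, on either strand, to the cyclic AMP response element TGACGTCA, to its half-site TGACG, which overlaps the full element, or to the TATA box TATAAA. The windows are chr2:162152248-162152497 on the minus strand for GCG, chr12:85874045-85874294 on the plus strand for NTS and chr3:187670395-187670644 on the minus strand for SST.
GCG: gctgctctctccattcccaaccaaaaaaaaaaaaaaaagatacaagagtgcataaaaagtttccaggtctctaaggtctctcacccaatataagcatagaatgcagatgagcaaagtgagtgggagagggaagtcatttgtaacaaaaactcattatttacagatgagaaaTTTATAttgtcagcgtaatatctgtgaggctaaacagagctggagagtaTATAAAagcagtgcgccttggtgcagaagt
NTS: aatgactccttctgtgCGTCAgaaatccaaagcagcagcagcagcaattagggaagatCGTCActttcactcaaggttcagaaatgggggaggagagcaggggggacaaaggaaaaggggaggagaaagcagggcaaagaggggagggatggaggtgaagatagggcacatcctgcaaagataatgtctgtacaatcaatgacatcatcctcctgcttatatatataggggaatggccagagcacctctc
SST: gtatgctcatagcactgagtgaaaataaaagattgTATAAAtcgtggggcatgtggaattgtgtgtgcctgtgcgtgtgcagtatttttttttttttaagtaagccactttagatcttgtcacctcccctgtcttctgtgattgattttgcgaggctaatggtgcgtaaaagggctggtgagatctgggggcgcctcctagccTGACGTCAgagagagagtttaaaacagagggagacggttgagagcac

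The GCG window held TATAAA matches beginning at −79 and −30 from the gene start and no half-site. The NTS window held half-sites at −234 and −192 and no TATAAA match, and the SST window held the full element at −47. A promoter window was present for 6 of the measured genes (GCG, NTS, NPY, VIP, SST and TAC1). Of these, 1 held the full element, 4 a half-site and 3 a TATAAA match. Over the same windows of all 27305 promoters, 1.77% held the full element, 21.7% a half-site and 11.1% a TATAAA match. These matches describe letters only. SST, with the full element, had differences from parental of −0.17 in MDVR and −0.12 in AbiR. A link between these motifs and the signal was not tested, and centred values do not show whether SST is expressed.

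GCG encodes proglucagon, the precursor of glucagon and of the incretin GLP-1, and is normally active in pancreatic alpha cells and intestinal L cells. Its single probe set, 206422_at, had centred log2 values of 5.999 on the MDVR array, −0.11 on the AbiR array and 0.026 on the parental array. The MDVR array therefore stood alone, while the AbiR and parental arrays differed by −0.13, within the range of the spiked controls. The log2 difference of 5.97 between MDVR and parental, a 62.8-fold higher signal, was the highest of all 19775 genes by the mean of their probe sets, which is how the gene was chosen. Taken alone, 1 of the 2 probe sets of DAPK1 had a higher difference, 6.12. Single probe sets were not ranked over the whole array, and the highest centred log2 value on the MDVR array was 7.04. Between MDVR and AbiR the log2 difference was 6.11, or 68.9-fold, and again ranked 1 from the top.

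NTS encodes neurotensin, a peptide of the gut and brain that can act as a growth factor for tumour cells. Probe set 206291_at, the only one of this gene, had centred log2 values of 0.98 on the MDVR array, 2.54 on the AbiR array and −0.98 on the parental array. All 3 arrays were thus set apart by more than any spiked control, with AbiR highest, MDVR between and parental lowest. The AbiR signal was 11.5-fold higher than the parental signal (log2 difference 3.53), at rank 7 from the top, and this value was also used in choosing the gene. The MDVR signal was 3.90-fold higher than the parental signal (log2 difference 1.96), at rank 74, and 2.95-fold lower than the AbiR signal (log2 difference −1.56). Unlike that of GCG, the difference of NTS was positive in both resistant lines.

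**Figure D1:**
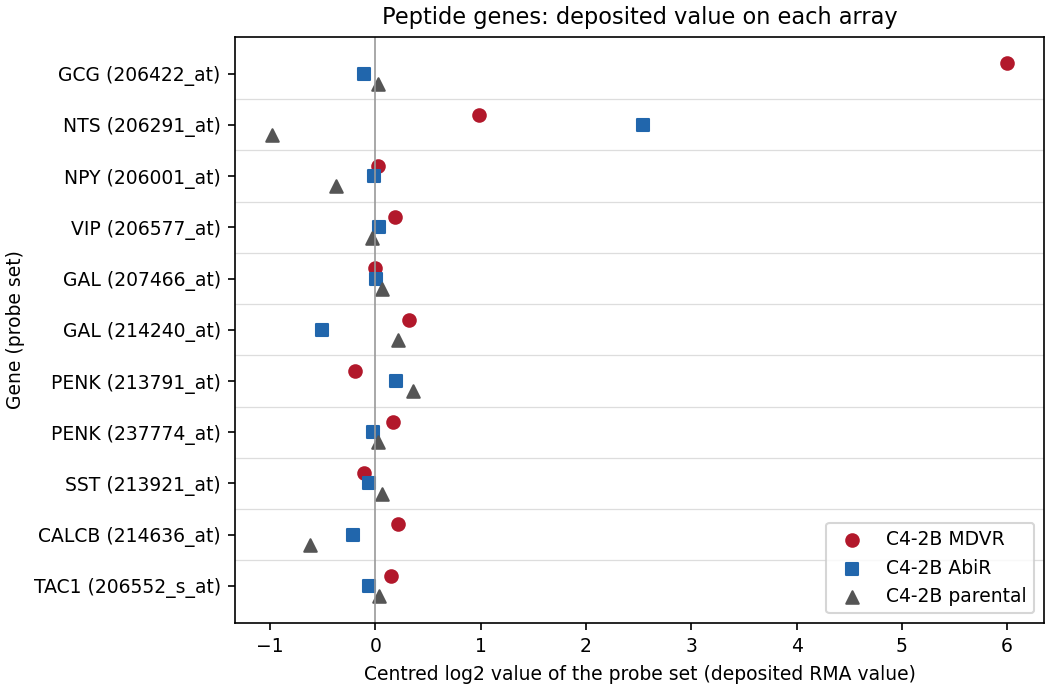
The centred log2 value of each probe set (x axis) is shown for the 11 probe sets of the 9 measured genes (y axis), with 1 array each of C4-2B MDVR (circles), C4-2B AbiR (squares) and C4-2B parental (triangles). GCG lies at 5.999 on the MDVR array and near 0 on the others, and NTS lies at 0.98 on the MDVR array, 2.54 on the AbiR array and −0.98 on the parental array.

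The calcitonin gene-related peptide gene CALCB, whose product widens blood vessels, came closest to 2-fold among the other genes. Its centred log2 values were 0.21 in MDVR, −0.21 in AbiR and −0.62 in parental cells. The log2 differences from parental were 0.83 in MDVR, a 1.78-fold higher signal, and 0.41 in AbiR, a 1.33-fold higher signal. Both exceeded the largest difference of the spiked controls, and 4.83% of all genes in MDVR and 11.3% in AbiR had a larger absolute difference. The neighbouring paralog CALCA, which yields calcitonin and the alpha form of the same peptide, had values of 0.28 ± 0.11 in MDVR and 0.04 ± 0.12 in AbiR (SD between 4 probe sets).

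NPY encodes neuropeptide Y, an appetite-stimulating peptide of sympathetic nerves and hypothalamus that is also made by prostate epithelium. Its centred log2 values were 0.021 in MDVR, −0.018 in AbiR and −0.38 in parental cells. Both resistant arrays lay close together, 0.40 and 0.36 above parental on the log2 scale, and 18.9% and 14.3% of genes had a larger absolute difference. Both values were past the largest spiked control difference of their comparison and short of 2-fold.

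The genes of vasoactive intestinal peptide, somatostatin and substance P stayed within narrow limits. VIP, whose peptide relaxes smooth muscle, had centred log2 values of 0.19 in MDVR, 0.030 in AbiR and −0.030 in parental cells. SST, which encodes an inhibitor of hormone release, had values of −0.11, −0.061 and 0.061 in the same order of arrays. TAC1, the precursor of substance P and neurokinin A, had values of 0.15, −0.059 and 0.038. For these 3 genes the log2 differences from parental ran between −0.17 and 0.22 in MDVR and between −0.12 and 0.060 in AbiR, all inside the range of the spiked controls.

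GAL and PENK were each read by a pair of probe sets that disagreed. GAL encodes galanin, a peptide of many central and gut neurons. Its probe set 207466_at had centred log2 values of −0.00042 in MDVR, 0.00042 in AbiR and 0.058 in parental cells, whereas 214240_at had values of 0.32, −0.51 and 0.22. The AbiR difference from parental was accordingly −0.73 by one probe set and −0.058 by the other, with a gene mean of −0.39 ± 0.48 (SD between 2 probe sets). PENK encodes proenkephalin, the source of the opioid enkephalins. Probe set 213791_at had values of −0.20 in MDVR, 0.20 in AbiR and 0.36 in parental cells, and 237774_at of 0.17, −0.025 and 0.025. The gene mean for MDVR minus parental, −0.20 ± 0.49, hides a difference of −0.55 in the first probe set and of 0.14 in the second, so that no direction can be given for PENK in MDVR.

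In all, 2 of the 9 measured genes, GCG and NTS, were at least 2-fold higher in MDVR than in parental cells, where 1.65% of all genes were, and 0 were at least 2-fold lower, against 1.67% of all genes. In AbiR, 1 of 9, NTS, was at least 2-fold higher than in parental cells (1.07% of all genes) and 0 at least 2-fold lower (0.804% of all genes). Between the resistant lines, GCG was at least 2-fold higher in MDVR than in AbiR (0.875% of all genes) and NTS at least 2-fold lower (1.13% of all genes). Since GCG in MDVR and NTS in AbiR chose the set, nothing is read from these shares. Set against parental cells, the 9 genes had a median log2 difference of 0.22 in MDVR and −0.097 in AbiR, beside 0.044 and −0.011 over all genes. Both comparisons share the parental array.

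**Figure D2:**
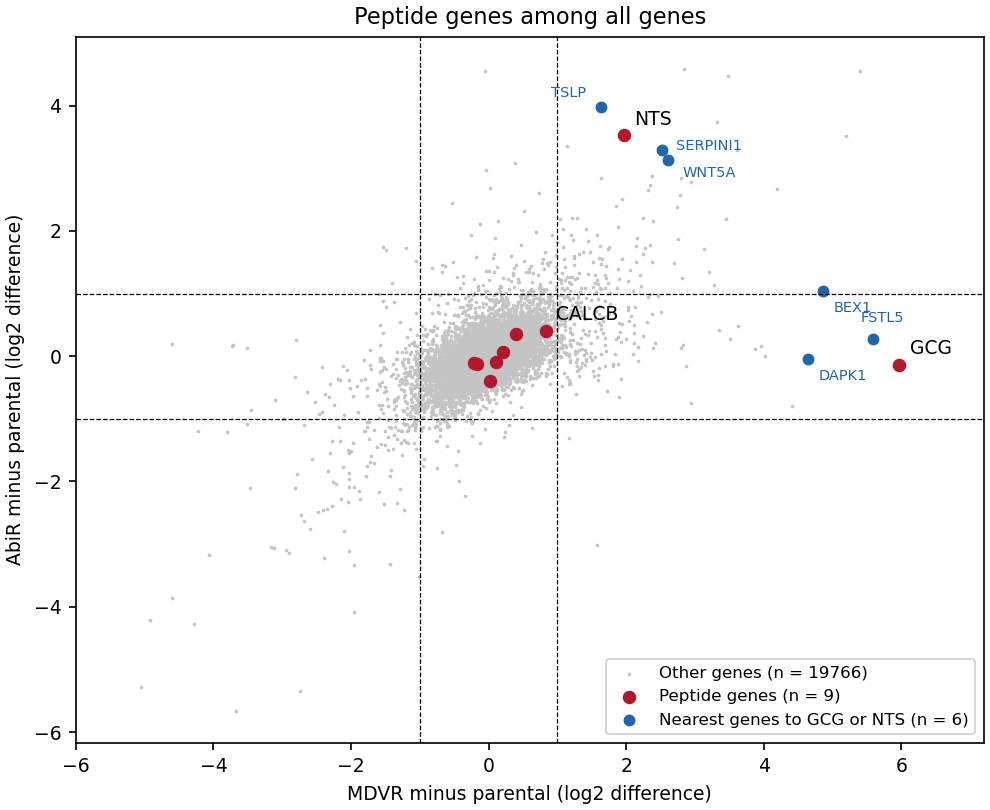
Log2 differences from parental in C4-2B MDVR (x axis) and in C4-2B AbiR (y axis) are plotted for every gene as 1 point, with the 9 measured peptide genes in red, the genes nearest to GCG or NTS in blue and dashed lines at 2-fold. GCG lies far to the right at 5.97 and −0.13, NTS in the upper part at 1.96 and 3.53, and the other 7 peptide genes within the 2-fold lines.

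Genes with a pattern like that of GCG or NTS were ranked by closeness. Measured by the Euclidean distance in the plane of both log2 differences, which rests on 3 arrays only, the gene nearest to GCG was FSTL5, a follistatin-like gene, with values of 5.59 in MDVR and 0.27 in AbiR (distance 0.56). DAPK1, a death-associated kinase, had values of 4.64 ± 2.09 and −0.050 ± 0.31 (distance 1.33), and its 2 probe sets were at 6.12 and 3.16 in MDVR. BEX1, a small neuronal signalling adaptor, had values of 4.86 and 1.04 (distance 1.61). The 3 genes nearest to NTS lay within 0.76 of it, those nearest to GCG within 1.61. The cytokine gene TSLP had values of 1.64 in MDVR and 3.98 in AbiR (distance 0.56). The neuronal protease inhibitor SERPINI1 had values of 2.52 and 3.30 (distance 0.60), and WNT5A, a Wnt ligand, of 2.61 ± 0.31 and 3.13 ± 0.27 (2 probe sets, distance 0.76).

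Genes next to GCG and NTS in the order of protein-coding genes were examined as well. On chromosome 2, GCG lies between DPP4 and FAP, both encoding membrane-bound serine peptidases. DPP4, the enzyme that inactivates GLP-1 and also clips neuropeptide Y, had a log2 difference from parental of −1.43 ± 0.36 in MDVR and −3.32 ± 0.27 in AbiR (SD between 3 probe sets). All of its probe sets were lower on both resistant arrays, by −1.04 to −1.74 in MDVR and by −3.04 to −3.57 in AbiR. FAP had values of −0.30 and −0.074. One gene further out on each side, SLC4A10, a bicarbonate transporter, had values of 0.15 and −0.059, and IFIH1, a sensor of viral RNA, of 0.90 ± 1.0 and −0.44 ± 0.11 (3 probe sets). The probe sets of IFIH1 ranged between 0.086 and 2.02 in MDVR. On chromosome 12, the genes flanking NTS were ALX1, RASSF9, MGAT4C and C12orf50, with values between −0.029 and 0.073 in MDVR and between −0.27 and 0.012 in AbiR.

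Receptors of the peptides were taken from a list of 34 genes, of which 32 were measured. In MDVR, 1 was at least 2-fold higher than in parental cells (1.65% of all genes) and 0 were at least 2-fold lower (1.67%). In AbiR, 0 passed 2-fold in either direction, beside 1.07% of all genes higher and 0.804% lower. At such low shares, a count of 0 among 32 genes tells nothing about receptors. The median of the list was −0.052 for MDVR and −0.059 for AbiR, beside 0.044 and −0.011 over all genes. The receptors of proglucagon products had small values. The glucagon receptor gene GCGR was at −0.11 in MDVR and −0.19 in AbiR, the GLP-1 receptor gene GLP1R at 0.25 ± 0.083 and 0.012 ± 0.097 (5 probe sets) and the GLP-2 receptor gene GLP2R at −0.13 and −0.066. Those of neurotensin were similar, with NTSR1, the high-affinity receptor, at 0.13 and −0.24 and NTSR2 at −0.13 and −0.16.

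The receptor gene past 2-fold was OPRK1, which encodes the kappa opioid receptor, a receptor mainly of dynorphins rather than of the enkephalins of PENK. Its probe set 229944_at had centred log2 values of 1.08 in MDVR, −1.08 in AbiR and −1.09 in parental cells, and 207553_at had values of 0.69, −0.32 and −0.40. Both probe sets set MDVR apart from the other arrays, with a mean log2 difference from parental of 1.63 ± 0.77 in MDVR and of 0.042 ± 0.056 in AbiR. The dynorphin precursor gene PDYN was at 0.18 and 0.068. The delta and mu opioid receptor genes OPRD1 and OPRM1, at which enkephalins mainly act, had differences of −0.11 and 0.032 ± 0.14 for MDVR, and of −0.33 and −0.28 ± 0.26 for AbiR. The neuropeptide Y receptor gene NPY1R was at −0.38 and −0.53, and RAMP1, the partner that makes the CALCRL receptor bind calcitonin gene-related peptide, at −0.59 and −0.16. The substance K receptor gene TACR2 was at 0.52 and 0.44.

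**Figure D3:**
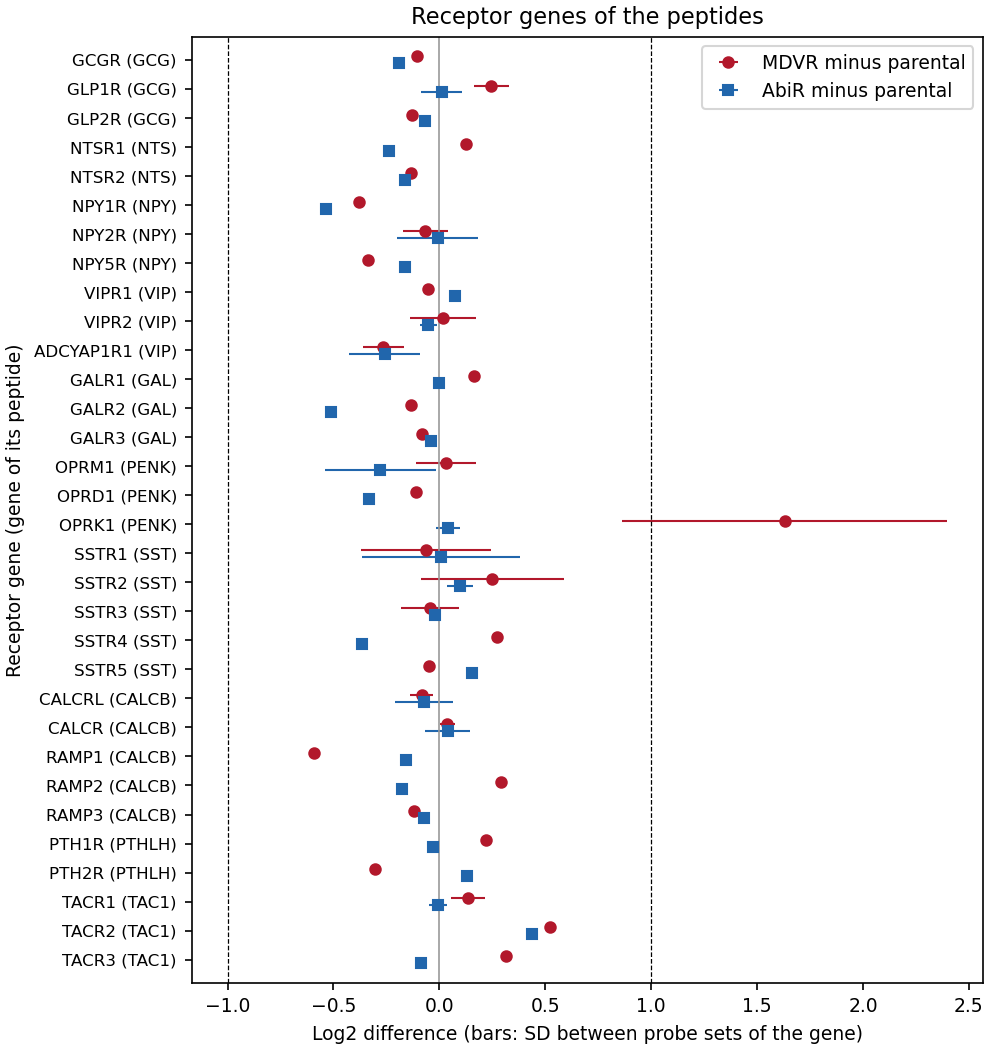
Log2 differences from parental (x axis) are shown for 32 receptor genes, with the gene of the peptide in brackets (y axis), for C4-2B MDVR (circles) and C4-2B AbiR (squares), 1 array each. Bars are the SD between probe sets and are absent for genes with 1 probe set, dashed lines mark 2-fold, and OPRK1 in MDVR, at 1.63, is the only point beyond them.

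Other peptide precursors were read from a list of 67 genes, of which 58 were measured. At least 2-fold higher were 2 in MDVR, or 3.45% beside 1.65% of all genes, and 2 in AbiR, or 3.45% beside 1.07%. At least 2-fold lower were 0 in either line, beside 1.67% and 0.804% of all genes. Their median was 0.064 for MDVR and −0.0061 for AbiR. The genes past 2-fold were those of relaxin, a hormone of the reproductive tract that the prostate also secretes. RLN1 had differences of 1.87 in MDVR and 1.09 in AbiR, and RLN2 of 1.62 and 1.08. Each was read by 1 probe set of suffix _s, and the genes are close paralogs, so that a shared signal cannot be separated. The lowest values of the list were those of PMCH, the melanin-concentrating hormone precursor, at −0.79 in MDVR and −0.62 in AbiR, and of NPPC, the C-type natriuretic peptide precursor, at −0.65 and −0.63. With arrays centred on hybridization controls, 1 of the relaxin pair remained past 2-fold in AbiR. NPW, the precursor of neuropeptide W, read by 1 probe set of suffix _x, was at 0.64 in MDVR and −0.46 in AbiR, and its log2 difference of 1.09 between MDVR and AbiR was the only one of the list at least 2-fold.

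Enzymes that process precursors, listed with an inhibitor and a chaperone of convertases, were represented by 11 of 14 listed genes. The genes of prohormone convertases 1 and 2 themselves, PCSK1 and PCSK2, were not among the 11. One of them, PCSK1N, which encodes an inhibitor of prohormone convertase 1, was at least 2-fold higher in MDVR, as were 1.65% of all genes, with a log2 difference from parental of 1.28, and was at 0.81 in AbiR. Peptidylglycine amidating enzyme PAM, which forms the C-terminal amide of peptides such as neuropeptide Y, was at 0.57 ± 0.35 in MDVR and 0.70 ± 0.29 in AbiR (3 probe sets). Carboxypeptidase E, CPE, which trims basic residues after cleavage, was at 0.45 ± 0.30 and 0.10 ± 0.027 (2 probe sets). SCG5, the chaperone of prohormone convertase 2, had the lowest values, −0.44 and −0.34. The list had medians of 0.078 in MDVR and 0.18 in AbiR, and the first was −0.10 when suffixed probe sets were left out.

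Among 21 secretory granule genes, 2 passed 2-fold in MDVR, 1 in each direction, and 1 in AbiR, which was lower. Over all genes, 1.65% were higher and 1.67% lower in MDVR, and 0.804% were lower in AbiR. SYT4, a synaptotagmin of dense-core vesicles, had centred log2 values of 4.80 in MDVR, −0.40 in AbiR and 0.40 in parental cells. Its difference from parental was 4.41 in MDVR and −0.79 in AbiR, so that the MDVR array was highest and the AbiR array lay below parental by more than any spiked control. CADPS2, which primes dense-core vesicles for release, had values of −3.16 in MDVR, −0.57 in AbiR and 0.64 in parental cells, with differences of −3.80 and −1.22. The granins CHGA and CHGB, the classical cargo of such granules, had differences of 0.013 and 0.016 for MDVR, and of −0.26 and −0.21 for AbiR. SCG2, a further granin, was at 0.37 and 0.12. Over the list, the median was 0.094 for MDVR and −0.045 for AbiR.

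Among 14 peptide-degrading enzymes, DPP4 was the only one past 2-fold in either resistant line, lower in both (1.67% of all genes in MDVR and 0.804% in AbiR), and the list had medians of −0.0062 and −0.040. In the comparison of MDVR with AbiR, it was higher in MDVR by 1.88 ± 0.40 on the log2 scale. Neprilysin, MME, which degrades enkephalins and substance P, was at −0.58 ± 0.33 in MDVR and 0.35 ± 0.019 in AbiR (2 probe sets). The neurotensin-cleaving enzymes NLN and THOP1 had differences of −0.45 ± 0.28 and −0.53 for MDVR, and of −0.20 ± 0.33 and −0.0048 for AbiR.

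**Figure D4:**
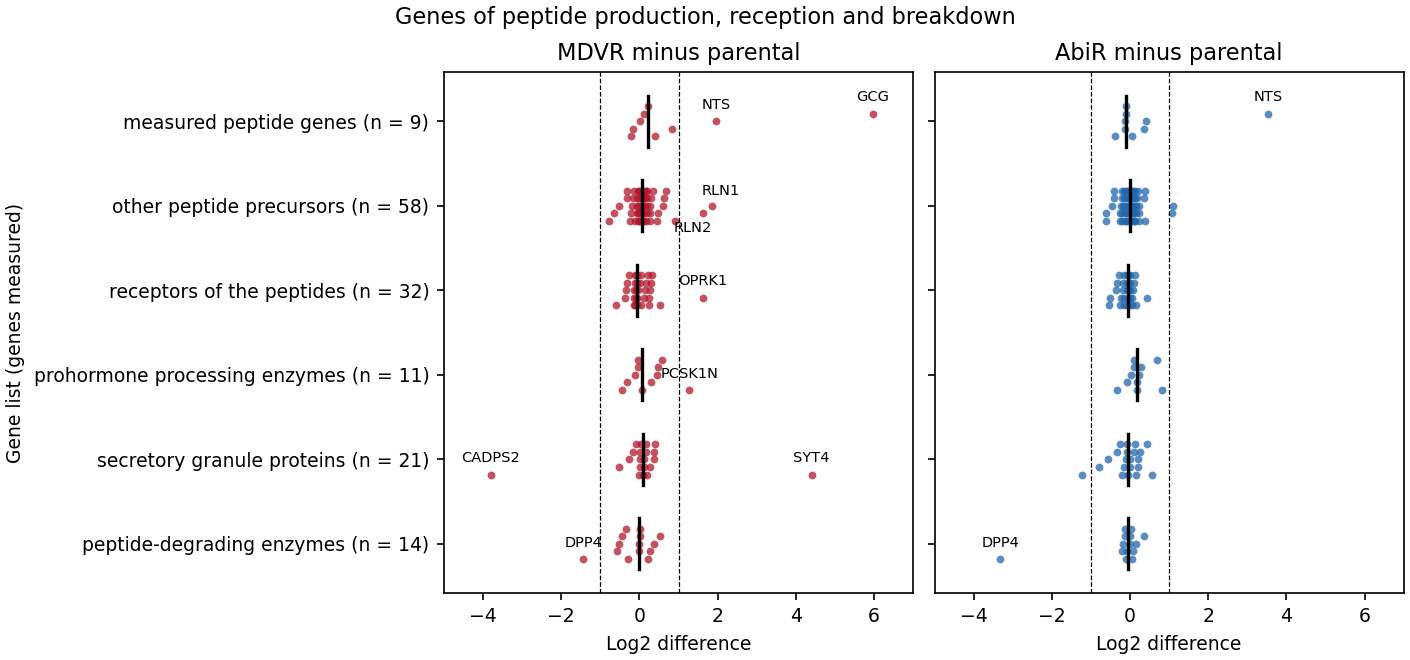
Each point is the log2 difference from parental of 1 gene (x axis) in C4-2B MDVR (left) and C4-2B AbiR (right), grouped by gene list with the number of genes measured (y axis), with black bars at list medians and dashed lines at 2-fold. GCG and SYT4 in MDVR, at 5.97 and 4.41, and NTS in AbiR, at 3.53, lie farthest to the right, and DPP4 in AbiR, at −3.32, farthest to the left of its panel.

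Markers of neuroendocrine cells, the prostate cells known for making such peptides, are given beside these values. Of 12 listed, 10 were measured, and 1, the enolase gene ENO2, was at least 2-fold higher in each resistant line, by 2.80 in MDVR and 2.85 in AbiR, as were 1.65% and 1.07% of all genes. The other 9, among them CHGA, CHGB, the synaptophysin gene SYP and the transcription factor gene INSM1, had differences below 2-fold. SYP was at −0.35 and −0.21 and INSM1 at 0.11 ± 0.0074 and 0.038 ± 0.072 (2 probe sets). Among 9 measured luminal prostate markers, KLK3, KLK2 and SLC45A3 were at least 2-fold lower in both lines, beside 1.67% of all genes in MDVR and 0.804% in AbiR. The other 6 stayed below 2-fold and went in both directions. They ran from −0.18 (TMPRSS2) to 0.64 (ACP3) in MDVR and from −0.45 to 0.85, for the same 2 genes, in AbiR. The probe sets of KLK3 disagreed, at −6.24, −5.61 and −0.35 in MDVR and −4.48, −4.57 and −0.44 in AbiR. Those of KLK2 ran between −2.37 and 0.20 in MDVR and between −3.73 and 0.11 in AbiR. With suffixed probe sets left out, KLK3 had no value, KLK2 had 1 probe set, at 0.20 and 0.11, and SLC45A3, whose probe sets carry no suffix, was as before. The part of either marker list in the values of GCG and NTS was not tested.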

How the data were processed

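RNA of 3 lines was measured, with 1 array per line, and groups were taken from the sample titles. The authors deposited log2 values of 54675 probe sets, made with RMA per the submitters' processing notes (version not given in the sources used here) and then centred for each probe set. At a tolerance of 2e-06, 100% of probe sets passed a check for a median of 0 over 4 arrays. Centring on these 3 arrays alone would also pass, so the check cannot show a further array. The values of GCG, 5.999, −0.11 and 0.026, have neither a median nor a mean of 0. They were therefore not centred on the median or mean of these 3 arrays alone. A further array, not analysed here, may have entered the centring.

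Names of probe sets came from the platform annotation, with symbols updated by gene ID through RefSeq (GRCh38.p14, IDs found for 99.9%). The 41097 probe sets of a single gene gave 19775 genes. Each gene was given the mean of its probe sets, log2 differences between arrays were taken, and differences of at least 2-fold were counted. No test was possible. Python 3.11.15, pandas 2.3.3 and numpy 2.4.6 were used. The counting was run on simulated data with planted differences well past the threshold and little noise. That run checks the code only and says nothing about the calls in these data.

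All members were named, with list genes past 2-fold in any comparison, receptors, the 3 genes nearest in pattern and 2 neighbours on each side. Genes at the ends of a list could also be named, and not all of them are. CALCA, PDYN, CPE, SCG2, SCG3, VGF, NLN and the markers SYP and INSM1 were added for their roles after their values were seen. The members and lists were chosen with earlier results of these data known. Alternatives were scaling, probe set choice and fold threshold. The number of arrays limits the precision.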

Additional observations from a re-analysis of the deposited data

Results flagged for a closer look

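Only the gene lists, the neighbours of GCG and NTS and the genes nearest to them in pattern were searched, not all 19775 genes. The following genes of that search had differences from parental of opposite sign in the 2 resistant lines. Each difference was beyond the largest spiked control difference of its comparison (0.35 in MDVR and 0.20 in AbiR). With 1 array per line, the difference between the lines was not tested for any of them. None is among the 9 measured peptide genes. SYT4 had a log2 difference of 4.41 in MDVR and −0.79 in AbiR, by 1 probe set. NPW had 0.64 and −0.46, and AGT, the angiotensinogen gene, had 0.69 and −0.26, also by 1 probe set each. IFIH1, a neighbour of GCG, had means of 0.90 ± 1.0 and −0.44 ± 0.11 (3 probe sets). Its probe set 216020_at, at 0.086 in MDVR, lay within the range of the spiked controls. MME had −0.58 ± 0.33 and 0.35 ± 0.019 (2 probe sets). PTPRN2, a granule membrane protein gene, had 0.38 ± 0.21 and −0.32 ± 0.28 (3 probe sets).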

How the results depend on the processing

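Scaling on array medians or on hybridization controls, the median of probe sets, the omission of suffixed probe sets (_s, _x or _a), added probe sets of several genes, fold thresholds of 3 and 1.5 and counting by probe set were tried. Of 63 values for the counts and medians of the peptide genes, 62 kept to the main value, within 1.5 times for counts and within 1 SD of the spiked controls for medians. The exception was the count at least 2-fold lower in MDVR than in AbiR, which was 0 at 3-fold in place of 1, since NTS was 2.95-fold lower. All 132 values of single peptide genes moved by less than the same SD, which was largely fixed in advance. These genes have 1 or 2 unshared probe sets, so the probe set settings return the same value. Rescaling shifts all genes of a comparison by the same amount. The 132 values are therefore no measure of stability. Nor are the 63 counts and medians, which come from the same genes, and GCG in MDVR and NTS in AbiR chose the set. At 1.5-fold, 3 of the 9 peptide genes were higher in MDVR than in parental cells, beside 4.81% of all genes. That count passed as kept because it lay within 1.5 times the main count of 2. TAC1, read by a probe set of suffix _s, has no value without such probe sets. At 3-fold, 136 and 106 of all genes were higher and lower in MDVR than in parental cells, against 327 and 331 at 2-fold, and at 1.5-fold 952 and 1019. In AbiR the counts were 73 and 61 at 3-fold, 212 and 159 at 2-fold and 656 and 498 at 1.5-fold. For MDVR minus AbiR they were 62 and 65, 173 and 224, and 548 and 784. Of 252 values of the other lists, 10 moved. With suffixed probe sets left out, 0 other peptide precursors were at least 2-fold higher in MDVR or AbiR than in parental cells, 1 luminal marker was at least 2-fold lower in either, where KLK3 has no value, and the median of the processing enzymes in MDVR was −0.10 in place of 0.078. No paired analysis was possible because each line had 1 array. Weak genes cannot be told from silent ones in centred values, and no replicate error exists.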
